A study of Mus musculus with 2 samples.

Results

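The 10 immature neuron genes Dcx, Tubb3, Sox11, Sox4, Igfbpl1, Neurod1, Eomes, Dlx1, Dlx2 and Cd24a were taken by name from the 24130 genes counted in single cells of the mouse hippocampus. Cells that carried at least 1 UMI (unique molecular identifier, one counted RNA molecule) of 3 or more of the 10 genes were then picked out, and all other cells were sorted by marker genes. Such cells numbered 24 of 6996 in the EMF_AuNPs library and 76 of 21425 in the control library. The EMF_AuNPs mice had gold nanoparticles injected into the hippocampus and 3 weeks in an electromagnetic field. The control mice carry the treatment label saline, and whether they too were placed between the coils is not clear from the protocol. All were male C57BL/6 mice, labelled 6 months old although the sample titles call the brain aged. There is 1 library per group and the number of animals behind each is not given in the sources used here, so no p-value can be computed and every interval below is a 95% interval that covers counting error only.

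In the adult hippocampus, stem cells of the dentate gyrus give rise to intermediate progenitors that express the T-box factor Eomes and then to neuroblasts that express the bHLH factor Neurod1 and mature into excitatory granule neurons. Dlx1 and Dlx2 are homeobox factors of the inhibitory lineage, which uses GABA as its transmitter. Doublecortin (Dcx) and beta-III tubulin (Tubb3) belong to the microtubules of young neurons of either lineage, and Sox4 and Sox11 are SoxC factors that switch on neuronal genes. Igfbpl1 encodes a secreted protein of the insulin-like growth factor binding protein family, and Cd24a a surface glycoprotein.

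The libraries differed in size and purity. The EMF_AuNPs library had 19537022 UMIs in the cells kept and a median of 2312.5 per cell, against 50880623 UMIs and a median of 1910 in the control library. The median share of haemoglobin UMIs per cell was 0.753% in EMF_AuNPs and 0.0760% in control. Cells with markers of several types and no clear lead, called mixed-marker cells here, made up 26.0% of EMF_AuNPs and 14.3% of control cells. Neuron gated cells numbered 17 of 6996 in EMF_AuNPs and 214 of 21425 in control, so the tissue's own neurons are scarce in either library, and a smaller share in EMF_AuNPs. The libraries shared 38 cell barcodes, and 0 of the 24 EMF_AuNPs cells and 1 of the 76 control cells with 3 or more genes had such a barcode.

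Over the whole libraries, Cd24a and Dlx2 were higher and Neurod1 was lower in EMF_AuNPs by at least 1.5-fold, and the other 7 genes stayed within that fold. Among all 15402 genes with at least 20 UMIs, 9.69% were higher and 7.02% lower by the same rule, and with 10 genes these counts are not read as a result about the group. The ratios are log2 ratios of CPM, the UMIs of a gene scaled to 1000000 UMIs of its library, with 1 CPM added to both libraries. The median of all genes was 0.067.

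Neurod1 had 11 UMIs in EMF_AuNPs cells (0.563 CPM, 0.281 to 1.01) and 190 UMIs in control cells (3.73 CPM, 3.22 to 4.30). The log2 ratio was -1.60, and the ratio without the added CPM had an interval of -3.76 to -1.86 on the same scale. Its library levels did not overlap within counting error. Neurod1 lies at chr2:79452521-79456751 on the minus strand (GENCODE M21, GRCm38). It overlaps Cerkl on the same strand and a long non-coding gene on the other, and how the counting treated reads of overlapping genes is not given in the sources used here.

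Eomes (chr9:118478212-118486132, plus strand) had 8 UMIs in EMF_AuNPs (0.409 CPM, 0.177 to 0.807) and 42 UMIs in control (0.825 CPM, 0.595 to 1.12), a log2 ratio of -0.37 with an interval of -2.31 to 0.10 without the added CPM. The intervals of the 2 libraries overlapped, and with doublet calls removed the log2 ratio was 0.46, of the other sign. The UMIs sat in 6 EMF_AuNPs and 17 control cells, the fewest cells of any of the 10 genes in EMF_AuNPs.

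Dlx2 (chr2:71543408-71546754, minus strand) had 20 UMIs in EMF_AuNPs (1.02 CPM, 0.625 to 1.58) and 11 UMIs in control (0.216 CPM, 0.108 to 0.387). The log2 ratio was 0.73, with an interval of 1.11 to 3.45 without the added CPM, which weighs heavily on a gene this low. Among cells with at least 1000 UMIs the log2 ratio was 0.56, under the 1.5-fold rule. Dlx1 (chr2:71528113-71533981, plus strand) had 32 UMIs in EMF_AuNPs (1.64 CPM) and 49 in control (0.963 CPM), a log2 ratio of 0.43 with an interval of 0.08 to 1.44 without the added CPM. Both genes thus stood above control in CPM, on few UMIs. Dlx1 and Dlx2 lie 9427 bases apart on chromosome 2 and on opposite strands, and the antisense gene Dlx1as overlaps Dlx1 and is counted as a gene of its own. How reads from the overlap were assigned is not given in the sources used here, so the Dlx1 count is uncertain to that extent.

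Dcx (chrX:143855842-143933311, minus strand) was as high in one library as in the other within counting error, at 25 UMIs (1.28 CPM, 0.828 to 1.89) in EMF_AuNPs and 70 UMIs (1.38 CPM, 1.07 to 1.74) in control. Its log2 ratio was -0.06, with an interval of -0.83 to 0.57 without the added CPM. Igfbpl1 had 73 UMIs (3.74 CPM) in EMF_AuNPs and 173 (3.40 CPM) in control, a log2 ratio of 0.11. Sox11 had 324 UMIs (16.6 CPM) in EMF_AuNPs and 686 (13.5 CPM) in control, a log2 ratio of 0.28. With doublet calls removed the log2 ratios of Igfbpl1 and Sox11 were 1.41 and 0.78, both past 1.5-fold.

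The remaining genes are Sox4, Tubb3 and Cd24a. Sox4 had 1509 UMIs (77.2 CPM) in EMF_AuNPs and 4775 (93.8 CPM) in control, a log2 ratio of -0.28. Tubb3 had 512 UMIs (26.2 CPM) in EMF_AuNPs and 928 (18.2 CPM) in control, a log2 ratio of 0.50. Cd24a had 569 UMIs (29.1 CPM, 26.8 to 31.6) in EMF_AuNPs and 650 (12.8 CPM, 11.8 to 13.8) in control, a log2 ratio of 1.13. In both libraries these 3 genes owed most of their UMIs to cells that carried fewer than 3 of the 10 genes. The same held for Sox11, Dlx1 and Neurod1, as described further on.

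Thinning every cell to 1000 UMIs left 5617 EMF_AuNPs and 17846 control cells and kept the direction of the called genes. Neurod1 was then found in 0.0712% of EMF_AuNPs and 0.263% of control cells, a difference of -0.192 points (-0.289 to -0.0627). Dlx2 was found in 0.107% of EMF_AuNPs and 0.0168% of control cells (0.0236 to 0.217 points), and Cd24a in 1.90% of EMF_AuNPs and 0.841% of control cells (0.708 to 1.48 points). The intervals of these differences did not include 0. Dcx was found in 0.178% of EMF_AuNPs and 0.129% of control cells, a difference of 0.0492 points (-0.0546 to 0.205).

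**Figure D1:**
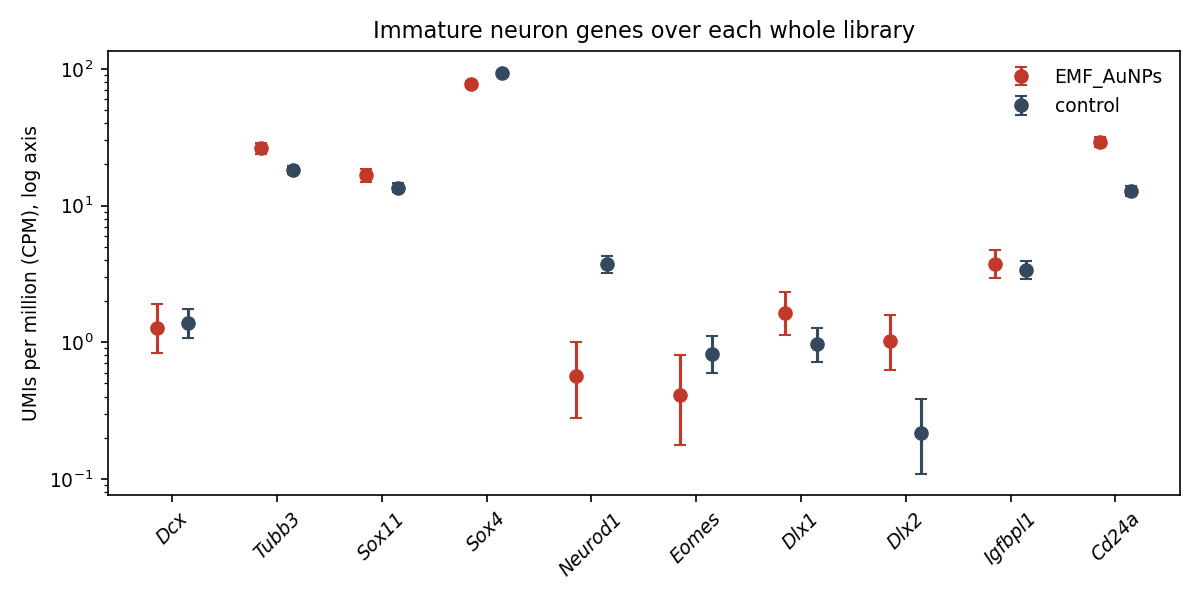
Library level of each of the 10 genes in CPM on a log axis, EMF_AuNPs left and control right of each pair. Bars are 95% Poisson intervals of the count. Neurod1 stands at 0.563 CPM in EMF_AuNPs and 3.73 CPM in control, while the intervals of Dcx and Igfbpl1 overlap.

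Cells with 3 or more of the genes were rare and equally frequent in both libraries within counting error. They made up 0.343% of EMF_AuNPs cells (0.220 to 0.510) and 0.355% of control cells (0.280 to 0.444), a difference of -0.0117 percentage points (-0.155 to 0.170). With every cell thinned to 1000 UMIs they were 4 of 5617 EMF_AuNPs cells and 31 of 17846 control cells, a difference of -0.102 points (-0.187 to 0.0205). Their median depth was 3912 UMIs in EMF_AuNPs and 3687.5 in control. A nearest-neighbour doublet caller set to the expected rate called 2 of the 24 EMF_AuNPs cells and 46 of the 76 control cells. Once the called cells were taken out, the EMF_AuNPs share of 0.333% exceeded the control share of 0.169% by 0.164 points (0.0300 to 0.342). A threshold at the gap between the modes of the simulated scores, tried first, called 0 of the 24 and 6 of the 76, which left 0.343% in EMF_AuNPs and 0.353% in control, so the effect of removing doublets depended on the threshold.

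The cut at 3 genes divides a steep distribution. Exactly 3 genes were carried by 15 EMF_AuNPs and 38 control cells, with a mean of 8.27 UMIs of the 10 genes in EMF_AuNPs and 6.61 in control. Exactly 2 genes, just outside the cut, were carried by 191 EMF_AuNPs and 280 control cells, with a mean of 3.24 such UMIs in EMF_AuNPs and 3.17 in control. The most genes in one cell were 8 in EMF_AuNPs and 7 in control. Cells with 2 or more genes made up 3.07% of EMF_AuNPs and 1.66% of control cells, so the libraries parted at the lower cut and not at the higher one.

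The genes differed widely in how much of their RNA lay inside these cells. In control, Eomes had 90.5% of its UMIs there, Igfbpl1 82.7%, Dcx 57.1%, Dlx2 54.5%, Sox11 39.9%, Dlx1 38.8% and Neurod1 34.7%. In EMF_AuNPs the same shares were 12.5% for Eomes, 38.4% for Igfbpl1, 32.0% for Dcx, 40.0% for Dlx2, 29.6% for Sox11, 40.6% for Dlx1 and 0% for Neurod1. Cd24a had 14.2% of its UMIs there in either library, Tubb3 6.84% in EMF_AuNPs and 8.08% in control, and Sox4 4.17% in EMF_AuNPs and 6.39% in control. Since the cells were chosen by these genes, the shares describe the choice and carry no test.

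Inside the cells, Sox11 stood at 681 CPM in EMF_AuNPs (551 to 831) and 683 CPM in control (604 to 769). Neurod1 had 0 UMIs in EMF_AuNPs, where 3 counts would be 21.3 CPM, and 66 UMIs in 27 control cells, or 164 CPM (127 to 209). Eomes had 1 UMI in EMF_AuNPs (7.09 CPM, 0.180 to 39.5) and 38 UMIs in 13 control cells (94.7 CPM, 67.0 to 130.0). Dlx1 ran the other way, with 13 UMIs in 8 EMF_AuNPs cells (92.2 CPM, 49.1 to 158) and 19 UMIs in 7 control cells (47.4 CPM, 28.5 to 73.9). Dlx2 had 8 UMIs in 6 EMF_AuNPs cells (56.7 CPM) and 6 UMIs in 5 control cells (15.0 CPM).

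The cells fell into 3 kinds, a split made after the cells were seen and given here as a description. In EMF_AuNPs, 1 of 24 carried Neurod1 or Eomes, 9 carried Dlx1 or Dlx2 and 14 carried neither pair. In control, 35 of 76 carried Neurod1 or Eomes, 8 carried Dlx1 or Dlx2 and 33 neither. No cell with 3 or more genes carried a gene of both pairs, and among all 1798 EMF_AuNPs and 4321 control cells with any of the 10 genes the number with both was also 0. Either pair was rare, in 17 (Neurod1 or Eomes) and 39 (Dlx1 or Dlx2) of these EMF_AuNPs cells and in 152 and 43 of these control cells, so a count of 0 with both is not read as exclusion. The Neurod1 or Eomes kind was 4.17% of the EMF_AuNPs cells (0.105 to 21.1) and 46.1% of the control cells (34.5 to 57.9).

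As a share of all cells, the Neurod1 or Eomes kind was 0.0143% in EMF_AuNPs (0.000362 to 0.0796) and 0.163% in control (0.114 to 0.227), a difference of -0.149 points (-0.214 to -0.0682). The Dlx kind was 0.129% in EMF_AuNPs (0.0588 to 0.244) and 0.0373% in control (0.0161 to 0.0736), a difference of 0.0913 points (0.0204 to 0.208). Taking out the doublets called at the expected rate, the Neurod1 or Eomes kind numbered 1 in EMF_AuNPs and 11 in control, a difference of -0.0468 points whose interval of -0.0972 to 0.0289 includes 0. The threshold tried first left 1 in EMF_AuNPs and all 35 in control. Thinned to 1000 UMIs, the kind numbered 0 of 5617 EMF_AuNPs and 16 of 17846 control cells (-0.146 to -0.0131 points), and the Dlx kind 2 EMF_AuNPs and 3 control cells (-0.0228 to 0.114 points). The direction of the Neurod1 or Eomes difference was negative at each of these settings. The Dlx difference was 0.0188 points after thinning, and its interval included 0. Thinning dropped the cells under 1000 UMIs and left only 2 and 3 Dlx cells, and what part depth has in the difference was not tested.

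**Figure D2:**
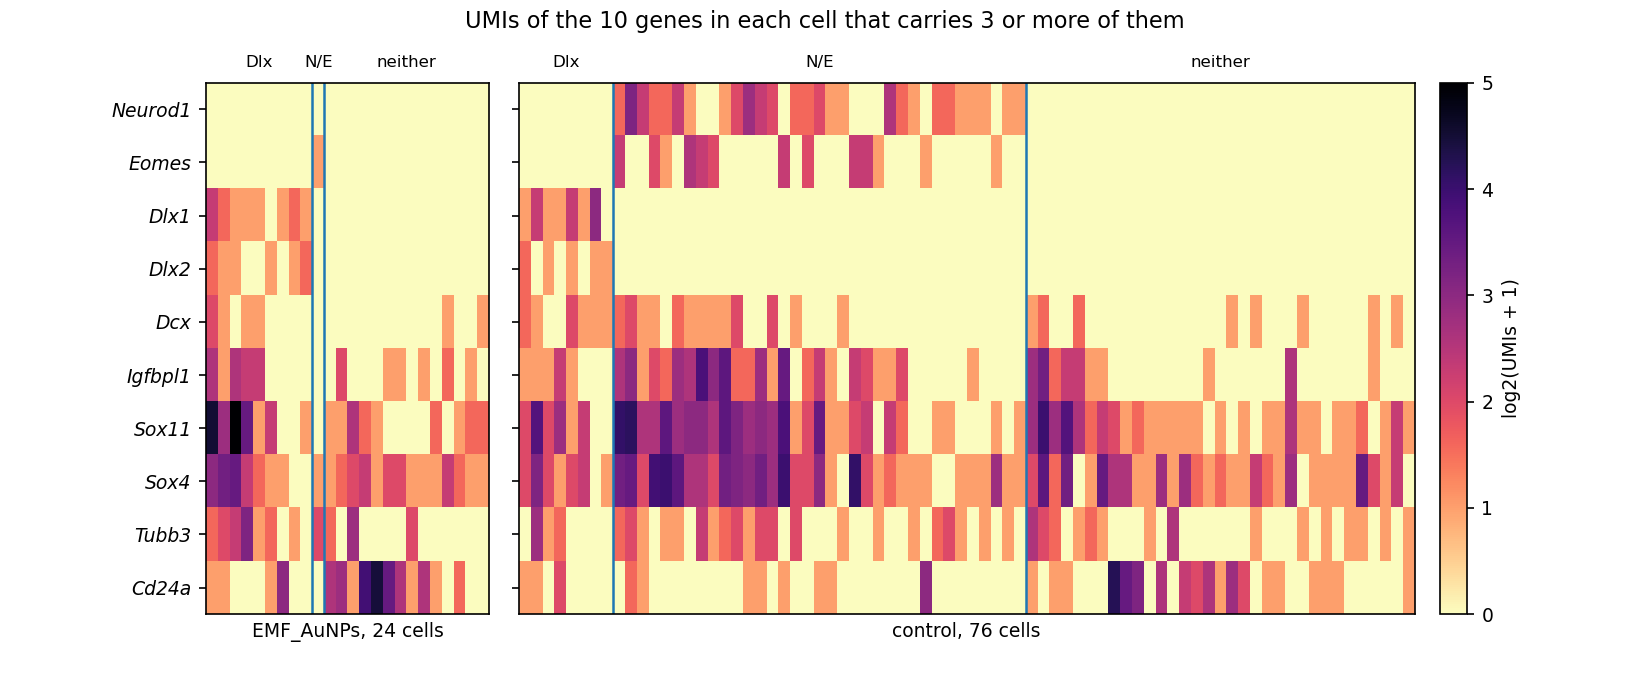
UMIs of the 10 genes (rows) in each cell that carries 3 or more (columns), EMF_AuNPs left and control right, coloured by log2(UMIs + 1). Lines divide cells with Dlx1 or Dlx2 (Dlx), with Neurod1 or Eomes (N/E) and with neither, and the N/E block holds 1 EMF_AuNPs cell and 35 control cells.

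The Neurod1 or Eomes cells of the control library carried the SoxC genes at high levels. Sox11 was found in 28 of the 35 cells and Sox4 in 32, at 962 CPM (820 to 1122) and 1057 CPM (908 to 1224). Igfbpl1 was found in 24 cells at 596 CPM, and Dcx in 13 cells at 124 CPM. Neurod1 and Eomes occurred together in 5 control cells. The single EMF_AuNPs cell of this kind carried 1 UMI of Eomes, 3 of Tubb3 and 1 of Sox4, and no Sox11, Igfbpl1 or Dcx. It held 7 of the 8 markers of Cajal-Retzius cells, the Reln-producing neurons of the outer layers, among them Tbr1, and with markers of other types it was a mixed-marker cell.

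The levels of Sox11, Dcx and Igfbpl1 in the Dlx cells describe few cells that were chosen by these genes among others. In the 9 EMF_AuNPs cells Sox11 stood at 2489 CPM (1970 to 3102), and in the 8 control cells at 843 CPM (565 to 1211). One EMF_AuNPs cell of 10414 UMIs, gated as a red blood cell by its haemoglobin, held 35 of the 79 Sox11 UMIs and another cell 22, and without the first the level was 2063 CPM (1499 to 2769). The deepest control Dlx cell, of 8645 UMIs, had 0 Sox11 UMIs. Without that cell the control level was 1127 CPM (755 to 1618), so with the deepest cell left out of each library the intervals overlapped. Dcx was found in 4 EMF_AuNPs cells at 189 CPM (69.4 to 411) and in 6 control cells at 262 CPM (120 to 497). Igfbpl1 stood at 599 CPM (360 to 935) in EMF_AuNPs and 233 CPM (100 to 458) in control.

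Sequence just before the start of a gene is shown for Eomes and Dlx2, a gene of each pair, and for the 1 motif match found near a start. Windows of 250 bases before RefSeq starts (GRCm38.p6) were matched for 8 of the 10 genes. The Eomes window is chr9:118477939-118478188 on the plus strand, and the Dlx2 window is chr2:71546755-71547004 on the minus strand. The Dcx stretch, chrX:143933241-143933270 on the minus strand, is the 30 bases around a homeobox core motif, whose letters are in capitals, and it lies inside the GENCODE gene, which starts further upstream.
Eomes: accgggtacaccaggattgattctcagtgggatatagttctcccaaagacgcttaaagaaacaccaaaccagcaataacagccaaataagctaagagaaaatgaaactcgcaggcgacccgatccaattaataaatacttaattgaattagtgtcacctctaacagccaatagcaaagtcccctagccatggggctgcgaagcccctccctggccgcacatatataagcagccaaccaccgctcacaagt
Dlx2: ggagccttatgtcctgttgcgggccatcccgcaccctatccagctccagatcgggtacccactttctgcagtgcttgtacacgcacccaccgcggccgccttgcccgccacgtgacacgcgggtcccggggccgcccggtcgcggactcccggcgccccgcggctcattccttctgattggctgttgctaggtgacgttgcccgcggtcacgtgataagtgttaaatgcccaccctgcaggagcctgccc
Dcx: aaaaaaagcatgTAATTAatcataggaggt
In all, 4 short motifs were searched on both strands. The homeobox core TAATTA was found in the Dcx windows alone, 39 bases before the start of one transcript and 134 bases before that of another, and in 4.84% of all 32851 windows of that length. The bHLH motif CAGATG, the SOX motif AACAAT and the T-box motif TCACAC, held by 14.4%, 9.42% and 12.3% of all windows, had no match in the windows of the 8 genes, so these letters are not in those windows. The Eomes window had a GC content of 46.4% and the Dlx2 window of 66.4%.

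Other genes of the cells followed the split. GABA lineage genes, 12 in number and among them Dlx5, Gad1, Gad2 and the factors Sp8 and Sp9, summed to 1386 CPM (1007 to 1861) in the EMF_AuNPs Dlx cells and 1774 CPM (1357 to 2279) in the control Dlx cells. Without the deepest Dlx cell of each library, the sums were 1875 CPM (1340 to 2554) in EMF_AuNPs and 1515 CPM (1078 to 2072) in control. The control cell left out, of 8645 UMIs and neuron gated, held 22 of the 61 UMIs of the list. All 12 genes had UMIs in the Dlx cells of either library. They summed to 100.4 CPM in the control Neurod1 or Eomes cells, where Dlx5, Dlx6, Sp8, Sp9, Gad1 and Gad2 had 0 UMIs. The non-coding transcript Dlx6os1 had 7 UMIs in 5 EMF_AuNPs and 4 UMIs in 3 control Dlx cells. Meis2, a homeobox factor, stood at 284 CPM in the EMF_AuNPs and 204 CPM in the control Dlx cells, and 21 of its 29 UMIs in the control cells with 3 or more genes lay in cells with neither pair. Etv1 stood at 31.5 CPM in the EMF_AuNPs Dlx cells, against 164 CPM in EMF_AuNPs cells with fewer than 3 genes, and at 262 CPM in the control Dlx cells, against 198 CPM in such control cells. Gad1, which makes GABA, had 2 UMIs in 2 EMF_AuNPs cells and 10 UMIs in 3 control cells.

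Granule lineage genes, 11 in number and among them Prox1, the factor that keeps granule neuron identity, summed to 744 CPM (620 to 886) in the control Neurod1 or Eomes cells, in 30 of 35 cells. In Dlx cells they summed to 158 CPM (51.1 to 368) in EMF_AuNPs and 116 CPM (31.7 to 298) in control. Calb2, the calcium binder of young granule neurons, had 25 UMIs in 13 control Neurod1 or Eomes cells, Neurod6 25 UMIs in 7 cells and Neurog2, a factor of early progenitors, 9 UMIs in 5 cells. Neurod2 had 16 UMIs in 8 cells and Prox1 14 UMIs in 11 cells. Of the list's 126 UMIs in these cells, 25 were thus of Neurod6 and 14 of Prox1. The list also holds Fezf2, Emx1, Bcl11b and Tbr1, the last a Cajal-Retzius marker here, so its name is only a label. Prox1 stood at 54.8 CPM in all control cells with 3 or more genes, against 39.0 CPM in other control cells. That is a log2 ratio of 0.40 with 10 CPM added, under the 1.5-fold rule, which 7 of the 9 listed genes with at least 20 UMIs passed in control. Neuron gated cells were 6 of the 35, and whether the sum comes from young granule cells or from other neurons was not tested. Calb2, Neurod6, Neurog2 and Neurod2 had 0 UMIs in the Dlx cells of both libraries. The difference between kinds rests on cells chosen by lineage genes and is a description.

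Cell cycle genes, 13 measured, also parted the cells. In the control Neurod1 or Eomes cells they summed to 933 CPM (793 to 1090), found in 14 of 35 cells, with 23 UMIs of Mki67 in 5 cells 22 of Top2a in 7, 36 of Cenpf in 7 and 15 of Tpx2 in 4. In the control Dlx cells they summed to 87.3 CPM (17.99 to 255), all 3 UMIs being of Pcna. In the EMF_AuNPs Dlx cells the sum was 2678 CPM (2139 to 3311), but 75 of the 85 UMIs lay in the cell of 10414 UMIs. Without it the other 8 cells summed to 469 CPM (225 to 862), and Mki67 had 0 UMIs and Top2a 1 UMI there. Insm1, a zinc-finger factor of dividing neuronal precursors, had 8 of its 11 UMIs in that cell.

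**Figure D3:**
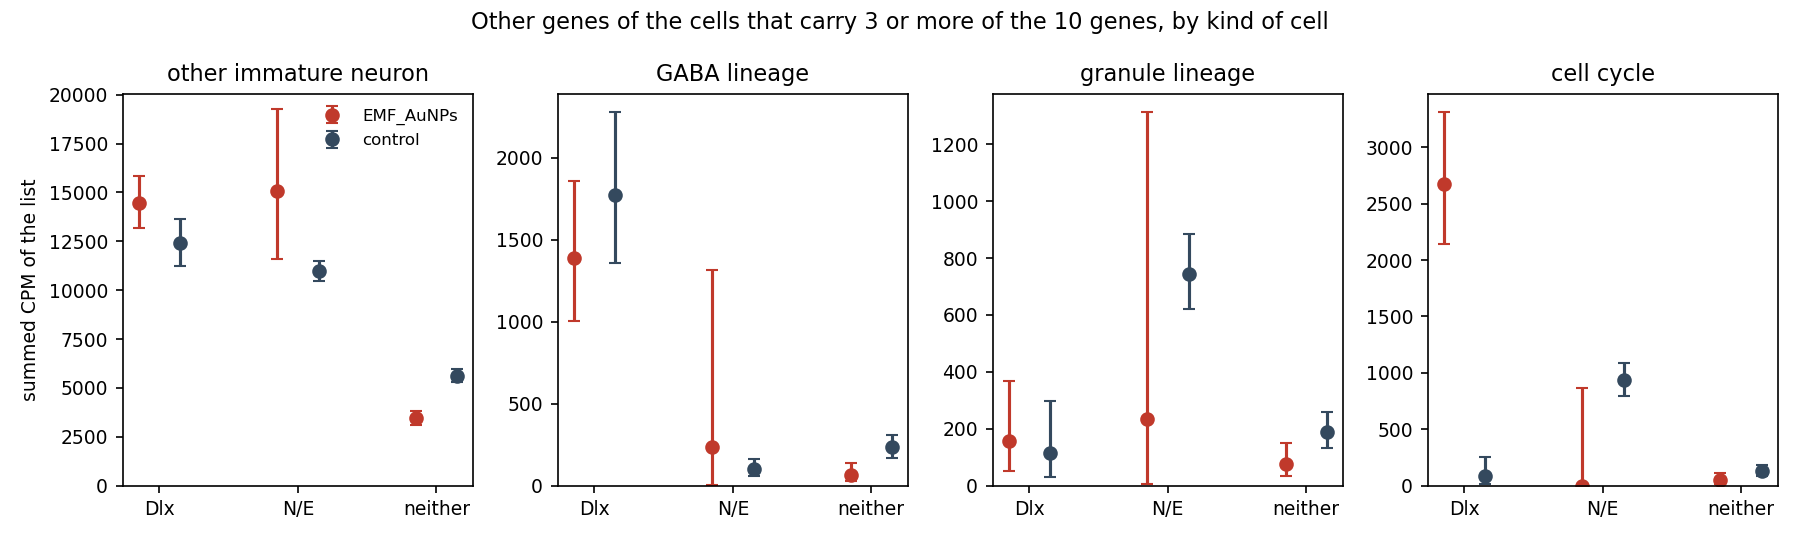
Summed CPM of 4 gene lists in cells with Dlx1 or Dlx2 (Dlx), with Neurod1 or Eomes (N/E) and with neither, EMF_AuNPs left and control right, with 95% Poisson intervals; each panel has its own axis from 0. GABA lineage genes stand at 1386 and 1774 CPM in Dlx cells, and granule lineage genes at 744 CPM in the control N/E cells; the EMF_AuNPs N/E point is 1 cell.

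Other genes of young neurons were higher in the cells with 3 or more of the 10 genes than in all other cells. Of 22 such genes with at least 20 UMIs in EMF_AuNPs, 15 were higher by at least 1.5-fold and 2 lower, with a median log2 ratio of 1.24 with 10 CPM added, against 22.8% of all genes higher, 19.8% lower and a median of 0.00028. In control 19 of 23 were higher and 1 lower, with a median of 2.18, against 18.5% of all genes higher, 12.2% lower and a median of 0.059. Nnat, which encodes neuronatin, stood at 1652 CPM against 257 CPM in other EMF_AuNPs cells, and at 1107 CPM against 157 CPM in other control cells. Of its UMIs in these cells, 149 of 233 in EMF_AuNPs and 311 of 444 in control lay in cells with neither pair. In Dlx cells Nnat stood at 2646 CPM in EMF_AuNPs and 233 CPM in control, and in control Neurod1 or Eomes cells at 738 CPM. Rtn1, a reticulon of the endoplasmic reticulum, stood at 574 CPM against 132 CPM in EMF_AuNPs and 1097 CPM against 181 CPM in control. Stmn1, which destabilises microtubules, was abundant throughout, at 1135 CPM against 860 CPM in EMF_AuNPs and 1351 CPM against 1104 CPM in control. Basp1, a protein of growth cones, stood at 298 CPM against 196 CPM in EMF_AuNPs and 835 CPM against 251 CPM in control.

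The list of 13 progenitor genes was mixed. Of the 12 with at least 20 UMIs, 5 were higher and 5 lower in the EMF_AuNPs cells, and 6 were higher and 3 lower in the control cells. Of all genes, 22.8% were higher and 19.8% lower in EMF_AuNPs, and 18.5% higher and 12.2% lower in control. The intermediate filament gene Vim stood at 659 CPM against 289 CPM in other EMF_AuNPs cells and at 371 CPM against 194 CPM in other control cells. In EMF_AuNPs, 88 of these 93 Vim UMIs lay in cells with neither pair, and the Dlx cells had 158 CPM. In control, Vim stood at 136 CPM in the Neurod1 or Eomes cells and had 0 UMIs in the Dlx cells. The stem cell factor Sox2 stood at 355 CPM against 208 CPM in EMF_AuNPs and 341 CPM against 174 CPM in control. Nes, another intermediate filament gene, stood at 92.2 CPM against 73.0 CPM in EMF_AuNPs and 67.3 CPM against 87.9 CPM in control. Btg2 was lower, at 113 CPM against 250 CPM in EMF_AuNPs and 102 CPM against 186 CPM in control. Of the 8 GABA lineage genes with enough UMIs, 5 were higher in EMF_AuNPs and 6 in control, and of the 9 granule lineage genes 1 was higher in EMF_AuNPs and 7 in control. Of the cell cycle genes, 12 of 13 were higher in EMF_AuNPs and 9 of 11 in control. The EMF_AuNPs count rests largely on 1 cell, since 75 of the 90 cell cycle UMIs lay in the cell of 10414 UMIs. Beside the same shares of all genes higher, 22.8% in EMF_AuNPs and 18.5% in control, the single granule lineage gene higher in EMF_AuNPs is no more than the share of all genes.

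Over both libraries, 0.770% of all UMIs lay in the 100 cells, and among other genes with at least 30 UMIs, found in 3 or more of these cells, the highest share of a gene's own UMIs there was that of Scrt2, a Scratch-family repressor of neurons, with 13 of 33 UMIs (39.4%). Lpar3, a lysophosphatidic acid receptor, had 14 of 42 UMIs there (33.3%), and Dpy19l2 11 of 36 (30.6%). Myb, a transcription factor of proliferating precursors, had 43 of 163 UMIs (26.4%), in 4 EMF_AuNPs and 11 control cells. Of the other genes in the first 12, Kif4, Hmmr, Rrm2, Pbk, Ckap2 and 2810417H13Rik are known from dividing cells, with shares from 25.8% to 34.3%. In EMF_AuNPs the UMIs of Kif4, Hmmr, Pbk and Ckap2 lay in 1 cell each. Insm1 had 26.8% of its UMIs there.

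The cells with neither pair included the ependymal cells that line the ventricles. Ependymal gated cells numbered 7 of the 24 EMF_AuNPs and 13 of the 76 control cells with 3 or more genes, and 6 of the EMF_AuNPs and 12 of the control ones carried neither pair. Of all ependymal gated cells, 14.9% in EMF_AuNPs (7 of 47) and 11.1% in control (13 of 117) carried 3 or more, each time Cd24a and Sox4 with 1 further gene. In EMF_AuNPs, the cells with neither pair held all 9 ependymal markers at 7778 CPM. Without ependymal gated cells, the Neurod1 or Eomes kind was 1 of 17 in EMF_AuNPs and 34 of 63 in control.

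By marker gate, the 24 EMF_AuNPs cells comprised 9 mixed-marker cells, 7 ependymal, 3 microglia, 2 with no type and 1 each of endothelial, astrocyte and red blood cell. The 76 control cells comprised 14 mixed-marker cells, 14 with no type, 13 ependymal, 9 neurons, 8 oligodendrocytes, 8 microglia, 6 astrocytes, 2 endothelial cells and 1 each of oligodendrocyte precursor and Cajal-Retzius. Many cells that carry neuronal genes thus also carry markers of glia. In the control Neurod1 or Eomes cells, all 10 microglia markers were found at 1854 CPM, with a median of 0.0411% and a highest value of 4.38% of a cell's UMIs, and all 9 astrocyte markers at 1889 CPM. In other control cells, microglia markers stood at 6225 CPM and astrocyte markers at 4055 CPM. In the EMF_AuNPs Dlx cells, 9 of 10 microglia markers were found at 2174 CPM, against 7019 CPM in other EMF_AuNPs cells, and in the control Dlx cells 10 of 10 at 3228 CPM. Astrocyte markers stood at 2174 CPM in the EMF_AuNPs Dlx cells, against 5701 CPM in other EMF_AuNPs cells, and at 4566 CPM in the control Dlx cells. In control, the 8 neuron markers stood at 4912 CPM in the Neurod1 or Eomes cells and 4217 CPM in the Dlx cells. Other control cells had 483 CPM. In EMF_AuNPs they stood at 1481 CPM in the Dlx cells, against 237 CPM in other cells. These sums were uneven over cells. The median share of a cell's UMIs was 0.0572% in the control Neurod1 or Eomes cells, with a highest value of 2.35%. It was 0.0174% in the control Dlx cells, at most 2.31%, and 0% in the EMF_AuNPs Dlx cells, at most 1.45%. In all other cells of either library the median was 0%. Neuron gated cells were 6 of the 35 control Neurod1 or Eomes cells and 2 of the 8 control Dlx cells. T cell and B cell markers had 0 UMIs in the Neurod1 or Eomes cells of control and the Dlx cells of either library. What part doublets or free RNA have in these markers was not tested.

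Outside the cells with 3 or more, each gene had its own distribution over marker gated types. Sox4 was highest in microglia among the larger types, at 230 CPM (211 to 249) in EMF_AuNPs and 332 CPM (319 to 345) in control. Microglia held 38.7% of its outside UMIs in EMF_AuNPs and 57.8% in control. The log2 ratio was -0.53 (-0.67 to -0.40 without the added CPM), within 1.5-fold. In oligodendrocytes, the myelin-forming cells, Sox4 stood at 31.0 CPM in EMF_AuNPs and 16.04 CPM in control, a log2 ratio of 0.91, where 8.41% of all genes were higher and 10.3% lower by 1.5-fold.

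Oligodendrocytes held 49.1% of the outside Tubb3 UMIs in EMF_AuNPs and 60.3% in control. Its level there was 63.7 CPM (55.8 to 72.4) in EMF_AuNPs, in 172 of 1075 cells, and 31.7 CPM (29.0 to 34.6) in control, in 466 of 6406 cells, a log2 ratio of 0.98. The ratio of Tubb3 was 0.91 in microglia, where 11.1% of all genes were higher by 1.5-fold, and 0.94 in mixed-marker cells, where 14.9% were and 7.74% were lower. In astrocytes it was 0.68, with 19.3% of genes higher, 9.82% lower and a median of all genes of 0.16. In endothelial cells it was 0.46, and in pericytes, where 18.4% of genes were higher, 0.80 from 4 EMF_AuNPs and 6 control UMIs. Cells with no type went the other way, at -1.33 from 1 EMF_AuNPs and 15 control UMIs. In choroid plexus cells, where 34.9% of genes were higher and the median of all genes was 0.37, it was 1.44 (0.22 to 3.98 without the added CPM), and in red blood cell gated cells 0.20 (-1.09 to 1.61). What part free RNA has in these values was not tested. Neuron gated cells had 126 CPM (25.9 to 368) in EMF_AuNPs, from 3 UMIs in 17 cells, and 85.7 CPM (58.6 to 121) in control, from 32 UMIs in 205 cells.

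Cd24a had 34.6% of its outside UMIs in 40 ependymal gated cells of EMF_AuNPs and 39.4% in 104 of control. Its level was 803 CPM (687 to 934) in EMF_AuNPs and 475 CPM (414 to 542) in control, and with under 50 EMF_AuNPs cells no ratio was taken. Red blood cell gated cells, in which CD24 is a known surface protein, had 127 CPM (108 to 149) in EMF_AuNPs and 73.0 CPM (56.4 to 93.1) in control, a log2 ratio of 0.79. In that type 6.58% of all genes were higher, and the median of all genes was -0.32. These cells numbered 475 in EMF_AuNPs and 296 in control, and held 30.9% of the outside Cd24a UMIs in EMF_AuNPs and 11.6% in control. The ratio was also 0.88 in endothelial cells, where 12.3% of genes were higher and 8.4% lower, 0.93 in microglia and 0.71 in oligodendrocytes. In choroid plexus cells, where 34.9% of genes were higher, it was 1.81 from 8 EMF_AuNPs and 3 control UMIs. In astrocytes it was 0.30 (-0.97 to 1.74 without the added CPM), and in mixed-marker cells -0.05 from 43 EMF_AuNPs and 95 control UMIs. Cells with no type had -3.99, from 0 EMF_AuNPs and 7 control UMIs. What part the red blood cell gated cells have in the library level was not tested.

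Sox11 was found most in astrocytes among the larger types, at 29.8 CPM (23.9 to 36.7) in EMF_AuNPs and 23.7 CPM (19.5 to 28.6) in control. The intervals overlapped, and the log2 ratio was 0.32. Oligodendrocytes had 4.35 CPM in EMF_AuNPs and 5.06 CPM in control. The 5 oligodendrocyte precursors of EMF_AuNPs and the 23 of control had 5 Sox11 UMIs each.

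Neurod1 outside the cells stood highest in CPM in control neurons, with 30 UMIs in 22 of 205 cells (80.3 CPM, 54.2 to 115). By UMIs, control neurons held 24.2% of the outside count, oligodendrocytes 26.6%, mixed-marker cells 19.4% and microglia 17.7%. In the 17 EMF_AuNPs neurons Neurod1 had 0 UMIs, where 3 counts would be 126 CPM, so a difference from control was not detectable at this depth. Neurod1 is also kept on in mature granule neurons. In microglia, which should lack it, the gene was found in 0.0799% of 1252 EMF_AuNPs cells and 0.500% of 4203 control cells, at median depths of 1602 UMIs in EMF_AuNPs and 1590 in control. Over all cells the share was 0.157% in EMF_AuNPs and 0.653% in control, above the share in microglia in either library, and the EMF_AuNPs share in microglia rests on 1 cell. What part free RNA has in these UMIs was not tested.

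Dcx outside the cells had 17 UMIs in 17 EMF_AuNPs cells and 30 UMIs in 30 control cells, never more than 1 per cell. In EMF_AuNPs, 6 of the 17 lay in microglia, 0.479% of that type, which is above the 0.329% over all EMF_AuNPs cells, so the EMF_AuNPs share is not read as expression. In control, 0.0476% of microglia had a Dcx UMI, against 0.266% of all control cells. Of the control UMIs, 4 lay in neurons and 3 in oligodendrocyte precursors.

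Igfbpl1 outside the cells was higher in EMF_AuNPs, with 45 UMIs (2.32 CPM) against 30 UMIs (0.594 CPM) in control, a log2 ratio of 1.06 (1.27 to 2.68 without the added CPM). The EMF_AuNPs UMIs were spread over 16 in mixed-marker cells, 8 in oligodendrocytes, 5 in ependymal cells and 4 each in microglia, astrocytes and endothelial cells. In control 9 lay in choroid plexus cells, the makers of cerebrospinal fluid, and 5 in cells with no type. In microglia 0.319% of EMF_AuNPs cells and 0.0238% of control cells had a UMI.

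Eomes outside the cells had 7 UMIs in EMF_AuNPs and 4 in control. T or NK gated cells, lymphocytes in which Eomes is a known factor, held 2 of the 7, in 2 of 4 cells, and 1 of the 4, in 1 of 10 cells. A further 3 EMF_AuNPs UMIs lay in 1 mixed-marker cell. Dlx1 had 19 UMIs in EMF_AuNPs and 30 in control, 1 per cell, and Dlx2 12 in EMF_AuNPs and 5 in control. In microglia Dlx1 was found in 0.240% of EMF_AuNPs cells and 0.0952% of control cells, and Dlx2 in 0 of 1252 and 0 of 4203 cells, where 3 counts would be 1.23 CPM in EMF_AuNPs.

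**Figure D4:**
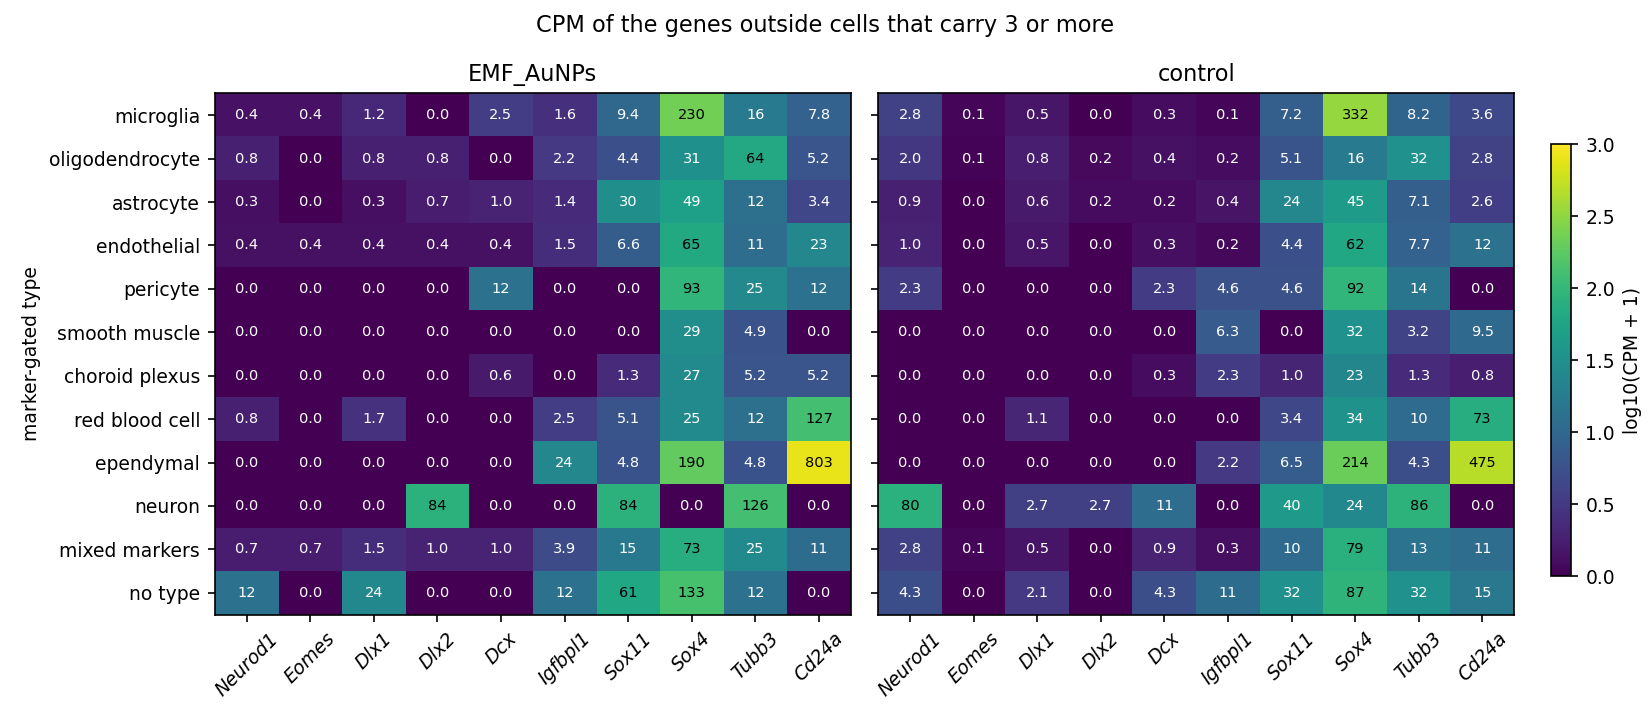
CPM of the 10 genes outside cells that carry 3 or more of them, by marker gated type (rows), EMF_AuNPs left and control right, with the CPM printed in each tile and coloured by log10(CPM + 1). Mixed-marker cells have a row of their own. Sox4 stands at 230 and 332 CPM in microglia and Cd24a at 803 and 475 CPM in ependymal cells.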

How the data were processed

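Single-cell RNA was measured in the hippocampus after papain dissociation, with 1 EMF_AuNPs and 1 control library. The authors deposited raw UMI counts, 1 matrix of genes by barcodes for each library. The submitters' processing notes name Cell Ranger 3.0.2, STAR and the build mm10, and the annotation is not given in the sources used here. Groups came from the treatment labels.

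The members and gene lists were chosen with earlier results of these data known. Barcodes under 500 UMIs or 250 genes were dropped, 7 in EMF_AuNPs and 158 in control. Total counts were 19537022 in EMF_AuNPs and 50880623 in control. A cell was given a type with at least 3 markers of it and a lead of 2 over any other, and haemoglobin of at least 20% of UMIs made a red blood cell. Of 142 marker genes, 3 were missing, and 1 of 73 list genes. Thinning to 1000 UMIs used a fixed seed.

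CPM intervals are exact Poisson, shares Clopper-Pearson, differences of shares Newcombe and ratios exact conditional binomial, all at 95% and for counting error only. With 1 library per group no test was possible; 1.5-fold (0.585 on the log2 scale) is a rule of size. The calling step was tested on simulated data. Genes named beyond the 10 are the 12 with the highest share of UMIs in cells with 3 or more, among genes with at least 30 UMIs and 3 such cells, the 4 of each list with the most UMIs there, and some on which a result turns, chosen after their values were seen. Some genes that this rule names are not reported here.

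Doublets were kept and called with simulated doublets (30 components, 2000 variable genes, 0.8% per 1000 cells). The threshold was changed after seeing the data, from the gap between modes, which called 1 EMF_AuNPs and 1584 control cells, to the expected rate, 384 EMF_AuNPs and 3648 control cells, which fixes the number called. The UMI-based gate (at least 50% of marker UMIs, taken after a stricter share was also looked at), the 3 kinds of cell and the values without the deepest cell were also added after seeing the data. Python 3.11.15, numpy 2.4.6, scipy 1.17.1 and scikit-learn 1.9.0 were used.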

Additional observations from a re-analysis of the deposited data

How the results depend on the processing

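No paired analysis was possible because each group has 1 library, and no replicate could be left out. Of 97 main results under the alternatives, 64 stayed within their error or within 1.5 times and 33 moved; of values of single genes, 84 stayed and 10 moved, and 0 called values changed sign. Asking for 2 or more genes gave 3.07% of EMF_AuNPs and 1.66% of control cells, a difference of 1.41 points. With cells thinned to 1000 UMIs that difference was 0.251 points. Asking for 4 or more gave 0.129% and 0.177%, with 0 EMF_AuNPs cells with Neurod1 or Eomes. Without Sox4, Tubb3 and Cd24a the shares were 0.0858% and 0.159%. Thinned to 1000 UMIs they were 0.0712% and 0.174%, with 0 EMF_AuNPs and 16 control cells with Neurod1 or Eomes and 2 and 3 with Dlx1 or Dlx2.

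With doublet calls removed the control share was 0.169%, with 11 cells with Neurod1 or Eomes, 4 with Dlx1 or Dlx2, 5 with no type and 4 with mixed markers, and 4 of the 10 genes were higher. In cells with at least 1000 UMIs 1 gene was higher. With 10 CPM added 1 gene was higher and 0 lower, and over all genes 448 were higher and 415 lower, where 1492 and 1081 were with 1 CPM; with 0.1 CPM 2 of the 10 were lower. A gate of 2 markers with a lead of 1 left 0 EMF_AuNPs and 3 control cells with no type and 3 and 8 with mixed markers, and the gate by marker UMIs, added after seeing the data, left 8 control cells with no type. The median of the other young neuron genes in control was 2.59 with 1 CPM added and 2.61 in cells gated to no other type. The cause of these shifts was not tested. Depth limits the values of Eomes, Neurod1, Dlx2, Dcx and Dlx1, each of which rests on 8 to 32 UMIs in EMF_AuNPs.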
